A study of Mus musculus with 12 samples.

Results

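The glucocorticoid receptor targets described here are 29 genes, chosen by name as well-known genes that the receptor switches on. The choice was made with earlier results of these data known. Every row with one of these gene names was taken from the deposited tables. Of the 29, 28 had a row among the 24396 genes of the lung table and 27 among the 22035 genes of the culture table. There were 12 libraries in 4 groups of 3, all from 4T1, a line of mouse mammary carcinoma that spreads to the lung. The lung groups, in vivo young and in vivo old, were 4T1 cells carrying the fluorescent protein mNeonGreen. Per the labels, each Balb/c mouse received 5000 of these cells by the tail vein, and 4 weeks later the lungs were sorted for 100000 cells per sample. The culture groups, young IFE and old IFE, were 4T1 cells seeded in RPMI-1640 medium with 10% fetal bovine serum. For a further 72 h the medium had no serum and held 25% of an extract of interstitial fluid (IFE), taken from lungs of young or old mice that carried 4T1 metastases. The age in months, sex and number of the mice are not given in the sources used here, and the labels do not say whether replicates came from separate animals or cultures. P-values therefore measure only the spread between these samples, which may be technical. Titles of the culture libraries carry the letters shNT. In the series' design text, which describes a human line not analysed here, the same letters stand for a non-targeting shRNA. No glucocorticoid, receptor blocker or receptor knockdown is named among the treatments of these 12 libraries.

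The glucocorticoid receptor, encoded by Nr3c1, is a nuclear receptor that chaperones hold in the cytoplasm until a steroid hormone, corticosterone in mice, binds it. The bound receptor enters the nucleus, raises transcription at sites built from a pair of inverted hexamers close to AGAACA, and dampens many inflammatory genes. In the lung it is known for its part in maturation before birth and for the effect of inhaled steroids. Many of its targets answer to other signals too: Dusp1, Sgk1 and Errfi1 to growth factors and stress, Per1 to cyclic AMP and the clock, Ddit4 to hypoxia and energy stress, and Mt1 and Mt2 to metals.

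Levels are given as CPM, counts scaled to a common library size, with TMM scaling over the 12 libraries together, as the mean and SD of 3 libraries. The lung and culture tables were made separately by the authors. The label "batch" on each sample is "in vivo" or "in vitro", so the setting, the sort and any batch cannot be told apart in lung against culture comparisons. Library totals ran from 11679046 to 15053144 counts in the lung and from 12299004 to 18129164 in culture. Counts of young lung replicate 3 were computed back from the deposited normalized values. The 13 carcinoma and epithelial markers, among them Krt8 and Krt18, had rows in both tables. Their summed level was 3533 to 3677 CPM of the library in young lung, 4685 to 4761 in old lung and 2834 to 3026 in culture. Krt8 weighs heavily in this sum, with means of 1690 CPM in young lung and 297.1 CPM with young IFE. By the test given below, 5 of the 13 were higher and 8 lower in young lung than in young IFE culture. In old lung against old IFE culture, 5 were higher and 5 lower. Macrophage and monocyte markers were also present in the sorted lung libraries. Their sum was 1830 to 1891 CPM in young lung, 252.8 to 265.7 in old lung and 8.38 to 11.4 in culture, where 10 of the 24 had a row in the table. Lyz2, the macrophage and neutrophil lysozyme, had a mean of 429.5 CPM in young lung, 75.3 in old lung and 0.111 in young IFE. In bulk RNA of this kind, fewer cells of a type and less RNA per cell cannot be told apart.

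Most receptor targets tested were more abundant in cells from the lung than in cells in culture, in both ages. A gene is called here when edgeR's quasi-likelihood test gave an adjusted p under 0.05 over all genes tested. Of the 21 targets that passed the filter on low counts in each setting on its own, 18 were called higher in lung in both ages. Among 12477 genes that passed in the same way this share was 32.2%. Since the targets were chosen with earlier results of these data known, the shares given here describe the list and are no independent test. Of all 23 targets tested, 19 were higher and 2 lower in young lung than in young IFE culture, and 19 were higher and 1 lower in old lung than in old IFE culture. These include Crispld2, which passed through the lung libraries where it was high, and Sult1a1, which passed over all libraries alone. Calls were common in these comparisons: 76.2% of 14318 genes were called between the young groups, 39.3% as higher and 36.9% as lower in lung. Between the old groups 74.6% were called, 38.6% as higher and 36.1% as lower in lung. The libraries of young lung lay all above those of young culture for 19 targets and all below for 3, against 78.9% of all genes without overlap, 40.2% above and 38.7% below. In the old groups this held for 19 and 1 targets, against 75.7% of genes, 38.4% above and 37.4% below. The median log2 fold change of the targets was 1.53 in the young and 1.80 in the old comparison, against 0.0148 and 0.0163 over all genes, and the targets' medians were the same over the 21, against -0.0427 and -0.0352 over the 12477 genes. A level at least 2-fold higher in lung in both ages was seen for 12 of the 21 targets (57.1%) and for 13.1% of the 12477 genes. When libraries were scaled by their totals alone, the median of all genes moved to -0.105 in the young and -0.122 in the old comparison, and no target changed direction. The summed targets took 5961 to 5989 CPM of each young lung library, 5945 to 6046 of each old lung library, 1745 to 1793 of each young IFE library and 1713 to 1794 of each old IFE library.

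**Figure D1:**
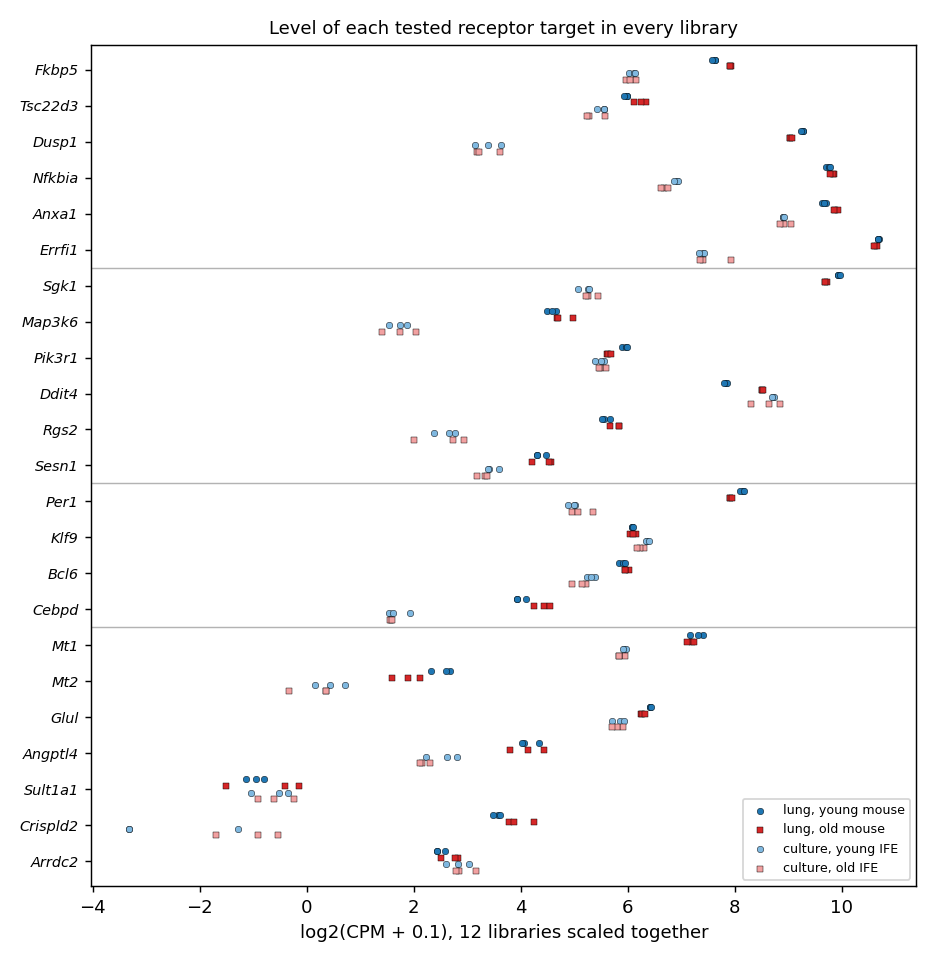
Level of each tested receptor target in every library, as log2(CPM + 0.1), with 1 point per library and lung and culture groups of both ages in separate colours and symbols; lines part the roles of the genes. Sgk1 and Dusp1 lie far apart between lung and culture, Klf9 and Arrdc2 lie close together, and young lung is the lowest group for Ddit4.

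Among the kinases and signalling proteins, the sharpest differences were those of Sgk1 and Dusp1. Sgk1 (ENSMUSG00000019970, chromosome 10, 21758083 to 21875802 as the tables give it, on a build that they do not name) encodes a kinase that raises sodium transport and cell survival. Its level was 977, 975 and 994 CPM in the young lung libraries and 823, 844 and 822 CPM in the old ones. In culture it was 38.1, 33.5 and 38.9 CPM with young IFE and 38.2, 37.3 and 43.4 CPM with old IFE. Every lung library thus lay far above every culture library, and all 3 old lung libraries lay below all 3 young ones. Sgk1 was 26.7-fold higher in young lung than in young IFE culture (log2 fold change 4.74 ± 0.0493 SE; edgeR, adjusted p = 8.13e-40). In the old groups it was 21.2-fold higher (log2 fold change 4.40 ± 0.0484 SE; edgeR, adjusted p = 4.00e-39).

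Dusp1 encodes a phosphatase that switches off MAP kinases. It was at 616, 617 and 607 CPM in young lung, at 526, 523 and 534 CPM in old lung, at 8.75, 12.3 and 10.3 CPM with young IFE and at 8.93, 9.24 and 12.2 CPM with old IFE. Lung and culture did not overlap, and neither did young and old lung, whereas the IFE groups overlapped. The log2 fold change of lung over culture was 5.89 ± 0.0830 SE in the young and 5.72 ± 0.0825 SE in the old groups (edgeR, adjusted p = 2.48e-20 and 4.30e-20). Dusp1 overlaps Ergic1 on the opposite strand in the file's coordinates, with mean lung counts of 7424 and 2591, and whether the libraries kept strand is not stated.

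The start regions were searched for the letters that the receptor is known to read, and Sgk1 is shown because it is the only one of the 25 targets with a start window that held the full palindrome. RefSeq start windows on GRCm38.p6, from 250 bases before to 50 bases after a transcript start, were found for 25 of the 29 genes in 37 windows; Zbtb16, Cebpd, Angptl4 and Cdkn1c had none. The perfect palindrome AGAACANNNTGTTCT, searched on both strands, was present in 3 of 32851 windows of all genes (0.00913%). These windows belong to Acnat2, Gm35041 and Sgk1, and this search result was singled out after it was seen. The looser core ACANNNTGT, which the palindrome contains, was in 6.85% of all windows, and the single hexamer AGAACA or its reverse complement TGTTCT in 19.0%. The 250 bases upstream of start 5 of 6 of Sgk1, chr10:21993640-21993889 on the + strand, are printed with the palindrome in capitals.
Sgk1 upstream: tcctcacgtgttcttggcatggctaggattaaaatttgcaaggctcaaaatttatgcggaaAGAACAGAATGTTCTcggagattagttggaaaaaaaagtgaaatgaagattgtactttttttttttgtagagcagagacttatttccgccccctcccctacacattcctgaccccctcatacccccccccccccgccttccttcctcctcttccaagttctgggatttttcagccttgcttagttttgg
The looser core lay upstream of a start of 5 targets. Each is shown with the 15 bases on either side and the core in capitals, and the matches to the palindrome's 12 fixed letters are given.
Sgk1 start 5: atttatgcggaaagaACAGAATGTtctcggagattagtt
Sgk1 start 2: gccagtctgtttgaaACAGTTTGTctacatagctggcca
Mt1: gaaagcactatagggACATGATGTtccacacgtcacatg
Map3k6: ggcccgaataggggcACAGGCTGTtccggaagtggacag
Glul: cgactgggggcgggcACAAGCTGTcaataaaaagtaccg
Slc10a6: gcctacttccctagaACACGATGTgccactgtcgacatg
The stretches lie at chr10:21993689-21993727, chr10:21978530-21978568, chr8:94178982-94179020, chr4:133240624-133240662, chr1:153899889-153899927 and, on the - strand, chr5:103629541-103629579. They match 12, 7, 9, 9, 7 and 10 of the 12 fixed letters in that order. The ACA and TGT of the core are among these 12 and were required by the search, so only the remaining letters could differ. A match describes letters in these windows and not a bound site, and the windows leave out distant enhancers.

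The feedback regulators were also higher in the lung. Fkbp5 encodes a co-chaperone that lowers the receptor's affinity for hormone. It stood at 198, 197 and 191 CPM in young lung, 241, 242 and 239 CPM in old lung, 64.6, 69.3 and 70.4 CPM with young IFE and 71.1, 62.6 and 66.0 CPM with old IFE. The lung libraries were all above the culture libraries and the old lung libraries above the young ones, while the IFE groups overlapped. The log2 fold change of lung over culture was 1.53 ± 0.0482 SE in young and 1.87 ± 0.0481 SE in old groups (edgeR, adjusted p = 7.53e-26 and 1.49e-28). Nfkbia, the inhibitor that keeps NF-kappaB in the cytoplasm, averaged 857.6 ± 18.5 CPM in young lung, 902 ± 21.8 in old lung, 120 ± 3.74 with young IFE and 103 ± 4.49 with old IFE. Its log2 fold changes of lung over culture were 2.85 and 3.15 (edgeR, adjusted p = 3.39e-37 and 2.07e-38). Tsc22d3, the leucine zipper protein GILZ that binds NF-kappaB and AP-1, was higher by 0.46 in young and 0.88 in old groups on the log2 scale (edgeR, adjusted p = 1.52e-06 and 1.15e-12). Anxa1, an anti-inflammatory phospholipid-binding protein, was already abundant in culture, at 481 ± 3.94 CPM with young IFE, and reached 811 ± 21.2 CPM in young lung.

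The signalling genes Errfi1, Rgs2, Map3k6, Sesn1 and Pik3r1 were called higher in lung in both ages. Errfi1, an inhibitor of the EGF receptor, was at 1656, 1628 and 1630 CPM in young lung and at 169, 171 and 160 CPM with young IFE. With old IFE it was at 168, 164 and 243.7 CPM, the last being replicate 3, which stood apart from the other old IFE libraries. The groups of lung and culture did not overlap, and the log2 fold change was 3.31 ± 0.136 SE in young and 3.06 ± 0.134 SE in old groups (edgeR, adjusted p = 1.62e-08 and 2.91e-08). Rgs2, which shortens signalling by G proteins, was higher by 2.99 and 3.21 on the log2 scale, and Map3k6, a MAP kinase kinase kinase, by 2.89 and 3.07. Sesn1, a p53 target that restrains mTORC1, was higher by 0.91 and 1.17. Pik3r1, the regulatory subunit of PI 3-kinase, was higher by 0.48 in the young groups and by 0.15 in the old groups. The old value was close to the threshold (edgeR, adjusted p = 0.0470) and was no longer called with library totals alone, where the log2 fold change was 0.0106 (adjusted p = 0.892). It was lost too when 1 library was left out, for each of the 6 lung libraries, young IFE replicate 3, old IFE replicate 2 and old IFE replicate 3, with log2 fold changes down to 0.0944 and adjusted p up to 0.271.

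The transcription factors were split. Per1, a repressor of the circadian clock, was at 284, 275 and 289 CPM in young lung, 239, 241 and 247 CPM in old lung, 29.2, 32.4 and 31.8 CPM with young IFE and 31.2, 33.5 and 40.8 CPM with old IFE. All lung libraries were several times above all culture libraries, with log2 fold changes of 3.19 ± 0.0638 SE and 2.80 ± 0.0626 SE (edgeR, adjusted p = 4.55e-27 and 8.76e-26). The E-box CACGTG, which clock proteins bind, was in a start window of Per1 and also of Fkbp5, Sgk1, Dusp1, Bcl6, Crispld2 and Klf15, and in 7.15% of all windows. Cebpd, a factor of the acute phase response, was higher by 2.33 and 2.89 on the log2 scale, and Bcl6, a repressor known from germinal centre B cells, by 0.59 and 0.87. Cebpd overlaps Spidr on the opposite strand, with mean lung counts of 238 and 306. Klf9, a Krüppel-like factor that the receptor induces in many tissues, went the other way. Its level was 67.4, 67.3 and 68.5 CPM in young lung and 81.8, 80.8 and 84.2 CPM with young IFE. Young lung and young culture did not overlap, with culture the higher (log2 fold change of lung over culture -0.27 ± 0.0566 SE; edgeR, adjusted p = 4.85e-05). In the old groups Klf9 was at the threshold (log2 fold change -0.12 ± 0.0571 SE; edgeR, adjusted p = 0.0496) and lost the call with DESeq2 (adjusted p = 0.0995). It also lost it without old lung replicate 2, any young IFE replicate, old IFE replicate 1 or old IFE replicate 2, with adjusted p up to 0.217.

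Ddit4, which inhibits mTORC1 under stress, was the target with the strongest fall in young lung. It was at 229, 232 and 223 CPM in young lung, 364, 363 and 371 CPM in old lung, 419, 427 and 413 CPM with young IFE and 460.0, 399 and 317 CPM with old IFE. The young lung libraries were the lowest of all, whereas old lung lay within the range of the old IFE libraries, which were spread widely. The log2 fold change of lung over culture was -0.87 ± 0.114 SE in young groups (edgeR, adjusted p = 8.95e-05) and -0.09 ± 0.112 SE in old groups (edgeR, adjusted p = 0.511). Without old IFE replicate 3 the old value was -0.2212 and was called (edgeR, adjusted p = 2.38e-07). Arrdc2, an arrestin-domain protein, had log2 fold changes of -0.35 and -0.23 that did not pass (edgeR, adjusted p = 0.0681 and 0.226). It was called lower in young lung without young IFE replicate 2 (adjusted p = 0.0342) and with library totals alone (adjusted p = 0.0156).

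Mt1, Mt2, Angptl4 and Glul, the metal-binding and metabolic targets that were called, were higher in lung in both ages. Mt1, a metallothionein that buffers zinc and copper, was higher by 1.37 and 1.32 on the log2 scale, and its neighbour Mt2 by 2.18 and 1.80. Mt2 was scarce, at 5.74 ± 0.723 CPM in young lung and 1.27 ± 0.270 CPM with young IFE. Whether reads were shared between the related genes Mt1 and Mt2 was not tested. Their upstream regions are printed with the core of the metal response element in capitals, since metals act through it. The core was searched as TGCACNC or TGCGCNC on both strands and was in 25.7% of all windows. The printed Mt2 region (chr8:94172368-94172617, + strand) holds 3 matches and the printed Mt1 region (chr8:94178839-94179088, + strand) 1 match. The whole windows, which run to 50 bases after the start, hold 4 matches for Mt2 and 3 for Mt1.
Mt2 upstream: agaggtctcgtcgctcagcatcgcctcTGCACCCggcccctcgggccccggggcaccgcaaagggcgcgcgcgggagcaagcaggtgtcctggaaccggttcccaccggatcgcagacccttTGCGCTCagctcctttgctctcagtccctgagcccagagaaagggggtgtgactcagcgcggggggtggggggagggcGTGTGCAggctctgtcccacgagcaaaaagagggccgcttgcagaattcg
Mt1 upstream: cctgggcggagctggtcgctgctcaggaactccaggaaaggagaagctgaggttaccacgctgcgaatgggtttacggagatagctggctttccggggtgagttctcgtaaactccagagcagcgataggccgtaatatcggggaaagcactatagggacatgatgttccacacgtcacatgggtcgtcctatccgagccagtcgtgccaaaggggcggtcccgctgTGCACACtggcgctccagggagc
Angptl4, an inhibitor of lipoprotein lipase, was higher by 1.60 and 1.98 on the log2 scale, and Glul, glutamine synthetase, by 0.60 and 0.48. Sult1a1, a sulfotransferase, had 3 to 14 counts per library and was not called in either age. Crispld2, a secreted protein induced by steroids, was at 11.8, 11.0 and 12.2 CPM in young lung and at 13.6, 14.5 and 19.0 CPM in old lung. In culture it had 5, 0 and 0 counts with young IFE and 11, 3 and 7 counts with old IFE, so its fitted log2 fold changes of 6.63 and 5.20 (edgeR, adjusted p = 5.20e-17 and 2.56e-17) rest on few culture reads.

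**Figure D2:**
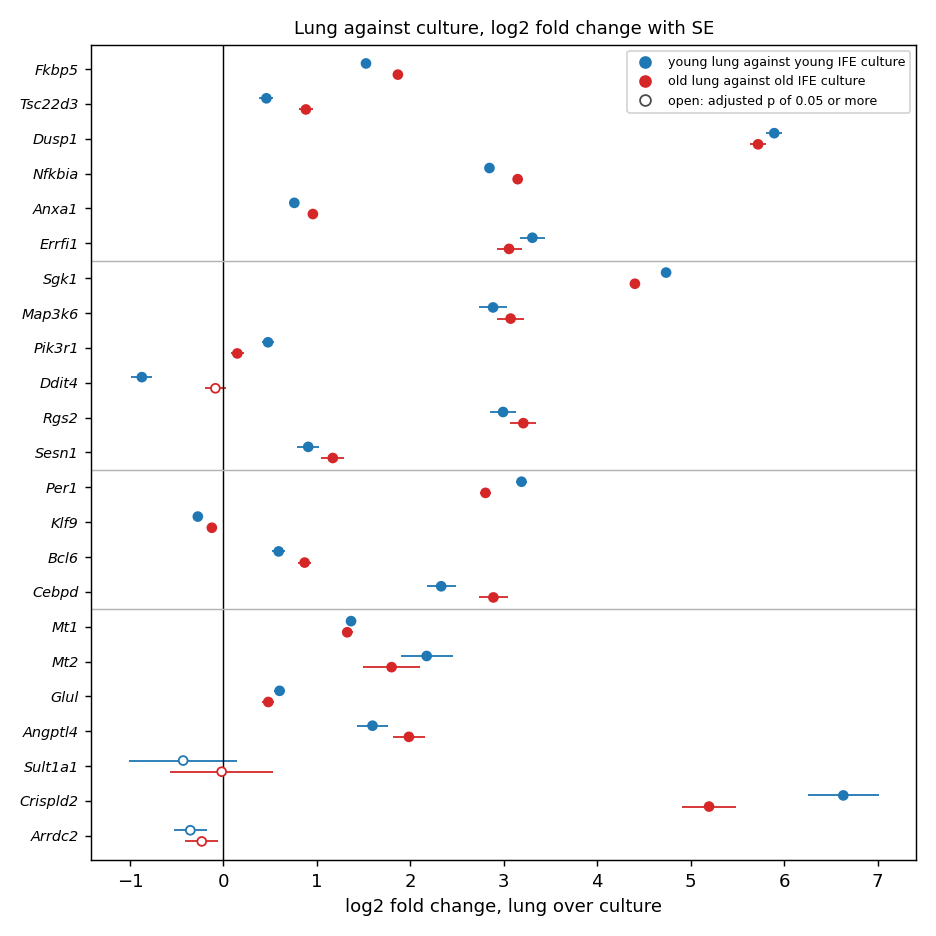
Log2 fold change of lung over culture for each tested receptor target in the young and the old groups, with SE bars and open points where adjusted p was 0.05 or more. Crispld2, Dusp1 and Sgk1 lie furthest to the right, Klf9 lies below 0 in both ages, and Ddit4 lies at -0.87 in the young and -0.09 in the old groups.

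The immediate early and stress genes, a list of 15 added after their values were seen, were higher in lung throughout, with 15 of 15 called in each age. Their sum was 12400 to 12520 CPM in young lung, 12970 to 13200 in old lung and 1394 to 1561 in culture. Fos was at 1138 ± 1.05 CPM in young lung and 1.81 CPM with young IFE. Of 24 macrophage and monocyte markers, 10 were tested, and all 10 were called higher in lung in both ages. Over all genes the share called higher was 39.3% in the young and 38.6% in the old comparison. Only 2 of these markers passed the filter in culture on their own. The others were tested because they were high in the lung libraries, so their direction was fixed beforehand. Genes of both lists moved with the receptor targets between lung and culture, and their part in the result was not tested.

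**Figure D3:**
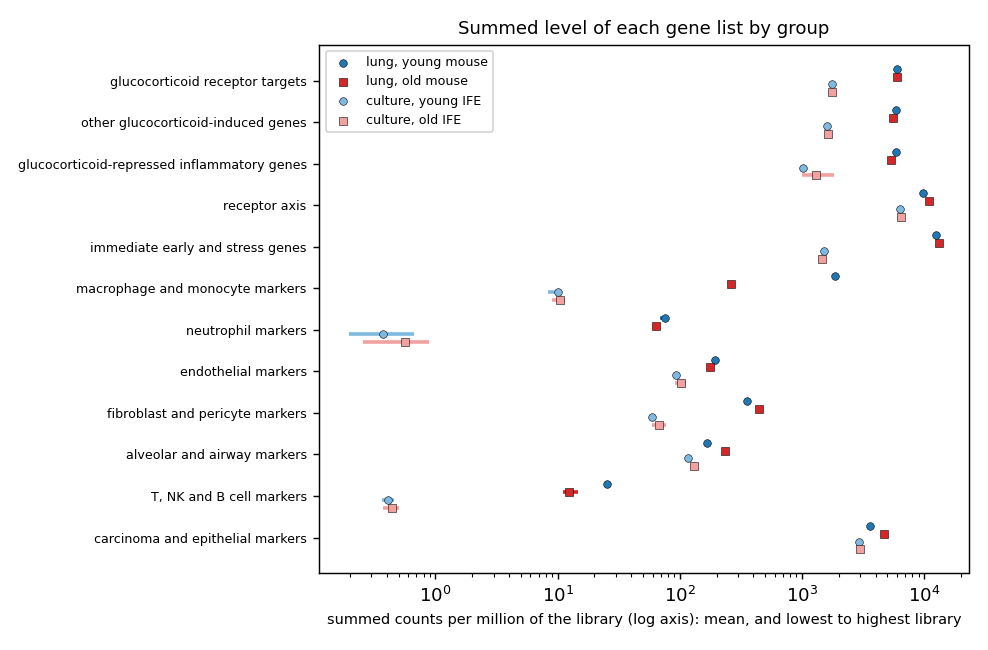
Summed level of each gene list in the 4 groups, in CPM of the library on a log axis, with points at the mean and bars from the lowest to the highest library. The receptor targets sum to 5961 to 6046 CPM in the lung libraries and 1713 to 1794 CPM in culture, and the macrophage and monocyte markers run from 1891 CPM in young lung down to 8.38 CPM in culture.

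The receptor itself was lower in the lung. Nr3c1 stood at 85.1 ± 3.42 CPM in young lung, 81.1 ± 5.07 in old lung, 182 ± 3.99 with young IFE and 181 ± 6.53 with old IFE. The log2 fold change of lung over culture was -1.09 in the young and -1.14 in the old groups (edgeR, adjusted p = 4.97e-21 and 1.79e-21). For the other pathway lists, counts are over genes that passed the filter in each setting on its own. Over all 12477 genes that did so, 37.1% were called higher and 40.0% lower in young lung, and 36.6% higher and 39.2% lower in old lung. Of 22 such genes of the receptor axis, 12 were higher and 9 lower in young lung, and 11 were higher and 9 lower in old lung. The chaperone gene Hspa8 was higher by 2.90 and 3.11 on the log2 scale, Hsp90ab1 by 1.04 and 1.28, and Dnajb1 by 1.63 and 2.01, all of which have close copies in the genome that could share reads. Fkbp4, Stip1 and Ptges3 of the same list went the other way. Their means were 162.6, 244.4 and 153.6 CPM in young lung and 260.1, 304.9 and 214.9 CPM with young IFE. Hsd11b1, which regenerates active corticosterone, was scarce, at 1.73 CPM in young lung and 0.434 CPM with young IFE. It did not pass the filter in culture on its own, and its fitted values over all libraries were 1.97 and 2.26. Among 24 other genes known to be induced by glucocorticoids, 16 were higher and 2 lower in young lung, and 18 were higher and 2 lower in old lung. Tgm2, a transglutaminase, was higher by 2.62 and 1.52, and the small GTPase Rhob by 3.35 and 3.01. Among 17 inflammatory genes that glucocorticoids repress in many cells, 15 were higher and 0 lower in young lung, and 14 were higher and 0 lower in old lung. The interferon response factor gene Irf1 was higher by 2.82 and 2.56, the interleukin gene Il1b by 6.89 and 3.98, and the chemokine gene Ccl2 by 5.07 and 4.73.

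The second question was whether the targets differed between old and young lungs. Of 22 targets tested, 9 were called higher and 6 lower in old lung, against 40.0% of 14096 genes called, 19.6% as higher and 20.4% as lower. The changes were small, from 1.06-fold to 1.62-fold for the higher and from 1.10-fold to 1.60-fold for the lower genes. The median log2 fold change was 0.0811 for the targets and 0.00188 for all genes. In 17 of 22 targets all old libraries lay on one side of all young libraries, 10 above and 7 below on the scaling of the lung libraries alone, against 47.5% of all genes, 23.0% above and 24.5% below. The targets thus moved in both directions, and of the 19 that were higher in lung in both ages, 8 were higher and 6 lower in old than in young lung.

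**Figure D4:**
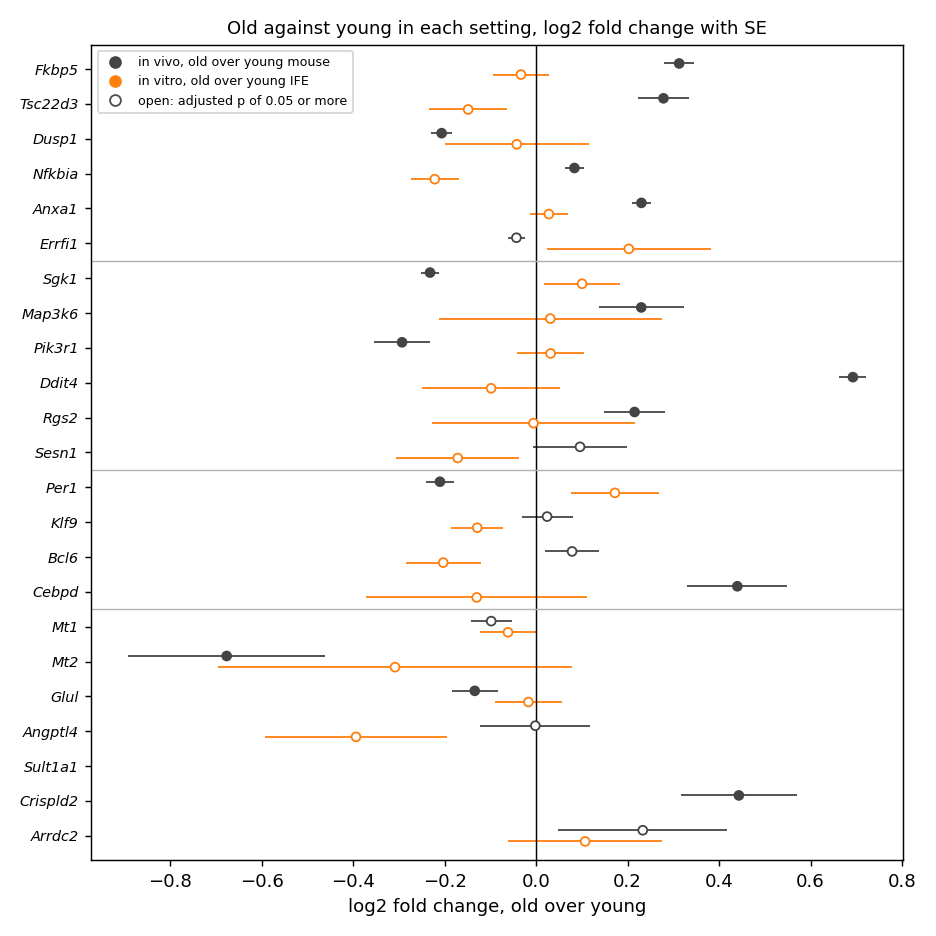
Log2 fold change of old over young for each receptor target, in the lung and with IFE in culture, with SE bars and open points where adjusted p was 0.05 or more; Sult1a1 was tested in neither setting and Crispld2 in the lung alone. Ddit4 at 0.69 is the furthest to the right in the lung, Mt2 at -0.68 the furthest to the left, and no target was called in culture.

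The feedback regulators Fkbp5, Tsc22d3, Nfkbia and Anxa1 rose in old lung. Fkbp5 rose 1.24-fold (log2 fold change 0.31 ± 0.0328 SE; edgeR, adjusted p = 3.64e-14). Tsc22d3 was at 62.9, 63.6 and 61.2 CPM in young lung and 81.1, 75.9 and 69.1 CPM in old lung, without overlap, a rise of 0.28 ± 0.0566 SE (edgeR, adjusted p = 2.26e-05). Anxa1 was at 788, 830 and 815 CPM in young lung and 932, 975 and 925 CPM in old lung. It rose by 0.23 ± 0.0215 SE on the log2 scale (edgeR, adjusted p = 1.68e-16). Nfkbia rose by 0.08 ± 0.0213 SE (edgeR, adjusted p = 7.29e-04), the smallest change that was called among the targets. The phosphatase gene Dusp1, also a feedback regulator, fell by 0.21 on the log2 scale (SE 0.0236; edgeR, adjusted p = 1.55e-12), with all old libraries below all young ones.

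Among the kinases and signalling genes, Ddit4 had the highest rise, 1.62-fold (log2 fold change 0.69 ± 0.0294 SE; edgeR, adjusted p = 5.60e-39). Rgs2 rose by 0.22 ± 0.0662 SE (edgeR, adjusted p = 0.00556). Map3k6 rose by 0.23 ± 0.0933 SE (edgeR, adjusted p = 0.0406), from 25.0, 22.3 and 23.8 CPM to 25.3, 31.3 and 25.7 CPM, values that came close to touching. That call was lost without young replicate 2, young replicate 3 or old replicate 2, with adjusted p = 0.169, 0.0875 and 0.381, and with DESeq2 (adjusted p = 0.112). No filter and library totals alone ended it too (edgeR, adjusted p = 0.0657 and 0.0547), as did limma on log2(FPKM + 0.1) and log2(FPKM + 1) (adjusted p = 0.132 and 0.133). Sgk1 fell by 0.23 on the log2 scale (SE 0.0207; edgeR, adjusted p = 1.39e-17). Pik3r1 fell from 59.6, 62.2 and 63.1 CPM to 48.8, 49.5 and 51.5 CPM, by 0.29 on the log2 scale (SE 0.0619; edgeR, adjusted p = 4.52e-05), without overlap. Errfi1 had a log2 fold change of -0.04 ± 0.0182 SE that just missed the threshold (edgeR, adjusted p = 0.0502), and it was called without old replicate 2 (adjusted p = 0.0190). Sesn1 and Arrdc2 had values of 0.10 and 0.23 that did not pass (edgeR, adjusted p = 0.490 and 0.334).

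Of the transcription factors, Cebpd rose and Per1 fell. Cebpd was at 17.0, 15.1 and 15.1 CPM in young lung and 21.4, 23.1 and 18.9 CPM in old lung, a rise of 0.44 ± 0.109 SE (edgeR, adjusted p = 4.99e-04) without overlap. Per1 fell by 0.21 on the log2 scale (SE 0.0308; edgeR, adjusted p = 8.95e-09). Bcl6 and Klf9 had log2 fold changes of 0.08 ± 0.0592 SE and 0.02 ± 0.0556 SE (edgeR, adjusted p = 0.306 and 0.768). Their 95% intervals ran from -0.0375 to 0.195 and from -0.0850 to 0.133.

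Among the metal-binding, metabolic and secreted targets, Mt2 had the lowest value. It was at 6.31, 4.93 and 5.98 CPM in young lung and 4.21, 2.91 and 3.63 CPM in old lung, and fell by 0.68 on the log2 scale (SE 0.215; edgeR, adjusted p = 0.00750). The groups did not overlap, and the call was lost without old replicate 2 (adjusted p = 0.0619). Mt1 had a value of -0.10 ± 0.0452 SE that did not pass (edgeR, adjusted p = 0.0818) and passed without young replicate 1 (adjusted p = 0.00291). Glul fell by 0.13 on the log2 scale (SE 0.05; edgeR, adjusted p = 0.0242), from 85.4, 85.4 and 86.5 CPM to 76.3, 76.99 and 79.4 CPM. That call was lost without young replicate 2, young replicate 3, old replicate 1 or old replicate 2, with adjusted p from 0.0511 to 0.0739. It was lost with DESeq2 as well (adjusted p = 0.0631). Crispld2 rose by 0.44 ± 0.127 SE (edgeR, adjusted p = 0.00283), and without old replicate 3 the value was 0.2881 and not called (adjusted p = 0.0973). With limma on log2(FPKM + 1) it was not called either (adjusted p = 0.0516). Angptl4 overlapped between the groups, with a log2 fold change near 0 and a 95% interval from -0.236 to 0.233.

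Nr3c1 itself had a log2 fold change of -0.06 in old lung (edgeR, adjusted p = 0.356), and Hsd11b1 was higher by 1.08 (edgeR, adjusted p = 0.00137). Hsd11b2, which inactivates corticosterone, was scarce, and was higher by 2.11 in old lung, at 0.528 CPM in young and 2.33 CPM in old. Its young lung libraries were near the floor, at 0.316, 0.643 and 0.626 CPM. Hsd11b2 passed the filter through the old libraries, where it was high. Among 24 genes of the receptor axis tested, 5 were higher and 5 lower, against 19.6% higher and 20.4% lower over all genes tested. Of 29 other induced genes, 8 were higher and 12 lower, with Zfp36, which destabilises cytokine messages, higher by 0.30 and Tgm2 at -0.88. Of 22 repressed inflammatory genes, 5 were higher and 15 lower, with Il1b at -2.64, Cxcl2 at -1.33, Nos2 at -1.20 and Mmp9 higher by 1.14. Il1b, Cxcl2 and Nos2 are also made by myeloid cells. Of 22 macrophage and monocyte markers tested, 22 were lower in old lung, with a median of -3.14. The 13 carcinoma and epithelial markers moved with age too, 11 higher and 1 lower. Of 15 alveolar and airway markers tested, 8 were higher and 2 lower, and their sum was 163.8 to 168.0 CPM in young and 229.3 to 237.9 CPM in old lung. Of 11 fibroblast and pericyte markers, 7 were higher and 2 lower, with sums of 345 to 369.6 and 437.2 to 446.1 CPM. The sums of endothelial markers were 189.5 to 196 CPM in young and 169.2 to 182 CPM in old lung. Eng made up most of them, with means of 166.1 and 141.2 CPM. Of 12 endothelial markers tested, 4 were higher and 2 lower in old lung, with a median log2 fold change of 0.452. Sums of neutrophil markers were 69.0 to 79.5 and 62.3 to 65.4 CPM, with 0 higher and 3 lower of 9 tested. Those of lymphocyte markers were 24.1 to 27.4 and 11.0 to 14.7 CPM, with 0 higher and 3 lower of 4 tested. Macrophage and lymphocyte markers that were scarce in old lung could pass the filter through the young libraries alone, which fixes their direction beforehand. The part of these marker shifts in the values of the receptor targets, of the other induced genes and of the repressed inflammatory genes was not tested.

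With IFE in culture, 0 of 21 targets tested were called between old and young IFE by edgeR, against 0.0839% of 13118 genes, 11 in all, 0.0534% as higher and 0.0305% as lower. At an unadjusted p under 0.05 there were 3 targets (14.3%) and 929 genes (7.08%), and DESeq2 called 26 genes and 0 targets. The median log2 fold change of the targets was -0.0424 and that of all genes 0.00509. The 3 targets with an unadjusted p under 0.05 were Nfkbia, Bcl6 and Klf9, and all 3 were lower with old IFE. Nfkbia was at 121, 123 and 116 CPM with young IFE and at 102, 98.6 and 108 CPM with old IFE, without overlap. Its log2 fold change was -0.22 ± 0.0522 SE (edgeR, adjusted p = 0.189). Without old IFE replicate 3 the value was -0.2478 and was called (adjusted p = 0.00538), and without the filter on low values it was called too (adjusted p = 0.0365). Bcl6 had a value of -0.20 ± 0.0818 SE and Klf9 one of -0.13 ± 0.0570 SE (edgeR, adjusted p = 0.587 and 0.674). Those 3 and Sesn1 were the 4 targets whose groups did not overlap, all lower with old IFE, and 13.1% of all genes had groups that did not overlap, 6.69% higher and 6.43% lower.

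The other targets gave intervals that leave room for small changes. Fkbp5 had a log2 fold change of -0.03 with a 95% interval from -0.155 to 0.0887, Sgk1 one of 0.10 from -0.0626 to 0.263, and Anxa1 one of 0.03 from -0.0531 to 0.109. The intervals of scarce targets were wider, such as that of Mt2 from -1.07 to 0.451. Old IFE replicate 3 stood apart in Errfi1 and Ddit4, and the summed repressed inflammatory genes ran from 1005 to 1835 CPM with old IFE against 1011 to 1044 with young IFE. All 17 repressed genes tested had positive log2 fold changes with old IFE and 0 were called, but without that replicate 6 were positive and 11 negative, with 3 called. Without it 183 genes were called in all, against 1 or 2 without old IFE replicate 2 or any 1 of the young IFE libraries. Of the other induced genes, Txnip, an inhibitor of thioredoxin, was lower by 0.39 with old IFE and was the only called gene of the lists of receptor axis, other induced and repressed genes (log2 fold change -0.39; edgeR, adjusted p = 0.0217). No gene of its list was called without old IFE replicate 2 or any 1 of the young IFE libraries, and 5 were called without old IFE replicate 3.

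The change with age was then compared between the settings by an interaction contrast over all 12 libraries. Of 23 targets tested, 6 had a more positive and 3 a more negative change in the lung than with IFE, against 17.5% of 14318 genes called, 9.10% as more positive and 8.37% as more negative. Fkbp5, Tsc22d3, Ddit4, Nfkbia, Bcl6 and Anxa1 were the 6, and Per1, Sgk1 and Pik3r1 the 3. Ddit4 had the highest difference, 0.79 ± 0.159 SE on the log2 scale (edgeR, adjusted p = 0.0103). Nfkbia had a log2 fold change of 0.08 in the lung and -0.22 with IFE, a difference of 0.30 ± 0.0524 SE (edgeR, adjusted p = 7.00e-05). Sgk1 had changes of -0.23 and 0.10, a difference of -0.33 ± 0.0656 SE (edgeR, adjusted p = 3.81e-04). For Bcl6 the difference was at the threshold (0.28 ± 0.0998 SE; edgeR, adjusted p = 0.0489) and was lost in 9 of the 12 fits that left out 1 library. These were the fits without each of the 6 lung libraries, replicates 1 and 3 of young IFE and replicate 2 of old IFE, with values from 0.2144 to 0.2816 and adjusted p up to 0.164. The Bcl6 call was lost too with DESeq2 (adjusted p = 0.0645). In edgeR it was lost with the size factors of DESeq2, library totals alone, no filter and the replicate block (adjusted p from 0.0512 to 0.0771). Crispld2 had a value of -1.44 that did not pass (edgeR, adjusted p = 0.197) and was called without young IFE replicate 1 (-5.184, adjusted p = 0.00958), the only young IFE library with Crispld2 reads.

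Per length, the order of the targets differed between the settings. FPKM values, deposited by the authors, scale for gene length. In young lung Nfkbia was highest at 455 ± 8.09 FPKM, then Errfi1 at 391 ± 5.57, Anxa1 at 238 ± 5.19, Sgk1 at 171 ± 1.75 and Dusp1 at 158 ± 1.80. Ddit4 and Mt1 came next at 111 ± 2.18 and 107 ± 8.82 FPKM, which do not differ beyond their spread. In old lung Ddit4, at 179 ± 2.56 FPKM, stood above Sgk1 and Dusp1. With young IFE Ddit4 was highest at 249 ± 5.63 FPKM, then Anxa1 at 172 ± 0.189, Nfkbia at 77.4 ± 2.93, Mt1 at 51.0 ± 1.07 and Errfi1 at 48.4 ± 1.95. The last pair were close without overlap, from 49.84 to 51.99 FPKM for Mt1 and from 46.12 to 49.7 FPKM for Errfi1. There Sgk1 was at 7.82 ± 0.590 and Dusp1 at 3.28 ± 0.558 FPKM.

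Some well-known targets were hardly detected in these cells. Zbtb16, a zinc finger factor with a strong steroid response in many tissues, had 5, 0 and 4 counts in young lung, 12, 11 and 5 in old lung, 0, 0 and 0 with young IFE and 2, 0 and 0 with old IFE. The lung libraries held nearly all of its reads, and it did not pass the filter on low counts. Pdk4, a kinase that slows pyruvate oxidation, had at most 6 counts in a library, the steroid sulfate carrier Slc10a6 at most 10, and the cell cycle inhibitor Cdkn1c at most 3. Klf15, a metabolic Krüppel-like factor, had a row in the lung table alone, with at most 4 counts. Tat, the liver enzyme tyrosine aminotransferase, had no row in the tables used here. None of these genes was tested.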

How the data were processed

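The members and the gene lists were chosen with earlier results of these data known. For lung and for culture the authors deposited raw counts per gene, normalized values and FPKM. HISAT2 2.0.5, featureCounts 1.5.0-p3, DESeq2 and a human genome build are in the submitters' processing notes, although the rows are mouse Ensembl genes. The build of the file's coordinates is therefore not given here. The protocol in the labels names poly-A selection and both a directional and a non-directional library type. In the deposited normalized signal, counts had been divided by a size factor of each library. Multiplied back, 100.0% of values were whole within 0.001 reads and equalled the deposited counts in the other 11 libraries, so this signal gave the reads of in vivo young replicate 3, which had no count column in the table used here. That use of recovered reads beside deposited counts is a departure from a fit on deposited counts alone.

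Genes passing the default filter of edgeR 4.0.16 (R 4.3.3) were fitted with TMM scaling, group as the single term and robust dispersions, and tested by quasi-likelihood. Lung and culture were each fitted alone on 6 libraries (14096 and 13118 genes). Lung against culture and the interaction were fitted on all 12 libraries and 14318 of the 20187 genes in both tables. P-values were adjusted by Benjamini-Hochberg over all genes tested, with a threshold of 0.05. The SE is the log2 fold change over the square root of its F statistic. FPKM, deposited by the authors, gave the order of members and an alternative test with limma 3.58.1 on log2(FPKM + 0.1) and log2(FPKM + 1). DESeq2 1.42.0, its size factors in edgeR, no filter, a replicate block and leaving out each library were the other alternatives; scaling by library totals alone, counts over genes that passed the filter in each setting on its own, and list signs with 1 library left out were added after seeing the data. The fits were tested on simulated counts. All 29 members are named; of the other pathway lists, Nr3c1, Hsd11b1 and up to 4 called genes of lowest p per list and comparison, and of marker lists up to 2 genes of highest level. Fos, from the added list of immediate early genes, and Fkbp4, Stip1 and Ptges3, from the receptor axis, were named after their values were seen. Promoter windows are RefSeq's on GRCm38.p6.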

Additional observations from a re-analysis of the deposited data

Results flagged for a closer look

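The change with age differed between lung and IFE culture for 9 receptor targets by the interaction contrast over all 12 libraries. The difference is the log2 fold change of old over young in the lung minus that with IFE. It was positive for Ddit4 (0.787181; edgeR, adjusted p = 0.0103), Tsc22d3 (0.422797; edgeR, adjusted p = 0.00471) and Fkbp5 (0.341294; edgeR, adjusted p = 3.81e-04). It was also positive for Nfkbia (0.301628; edgeR, adjusted p = 7.00e-05), Bcl6 (0.278239; edgeR, adjusted p = 0.0489) and Anxa1 (0.198759; edgeR, adjusted p = 0.00476). It was negative for Per1 (-0.385227; edgeR, adjusted p = 0.00264), Sgk1 (-0.333521; edgeR, adjusted p = 3.81e-04) and Pik3r1 (-0.328903; edgeR, adjusted p = 0.0131). Every old lung library lay above every young one for Ddit4, Tsc22d3, Fkbp5, Nfkbia and Anxa1, and below for Per1, Sgk1 and Pik3r1. For Bcl6 this held on the scaling of the lung libraries alone, whereas with the 12 libraries scaled together the lowest old value, 61.29 CPM, met the highest young value, 61.3 CPM. With IFE the groups overlapped for all of these but Nfkbia and Bcl6, which were lower with old IFE in every library. The interaction call of Bcl6 was lost under each alternative that kept all 12 libraries. The settings differ in label, sort and medium at once, and these cannot be told apart.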

How the results depend on the processing

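Counts of targets called in vivo, in the interaction and as higher in lung stayed within 1.5 times of the reported ones under each alternative run. In culture, the 11 genes called became 26 with DESeq2, 70 with no filter, 7 with the replicate block, 2 with limma on log2(FPKM + 0.1), 2 with limma on log2(FPKM + 1), and 1 to 183 with 1 library left out. Targets called lower with old IFE went from 0 to 1 with no filter, and ran from 0 to 1 with 1 library left out. The 1 target called lower in old lung than in old IFE culture became 0 with DESeq2, 0 with its size factors and 0 with the replicate block, and ran from 0 to 2 with 1 library left out. The cause of these shifts was not tested. The single direction that turned without leaving out a library was that of Angptl4 in old against young lung (DESeq2, 0.00276).

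With 1 library left out, uncalled values changed sign, within these log2 ranges. In the interaction, Rgs2 ran from -0.01608 to 0.4009. In old against young IFE, Anxa1 ran from -0.01747 to 0.05816, Arrdc2 ran from -0.01995 to 0.224, Ddit4 ran from -0.2237 to 0.03926, Dusp1 ran from -0.1909 to 0.08294, Glul ran from -0.0727 to 0.0388, Map3k6 ran from -0.1449 to 0.1904, Pik3r1 ran from -0.009691 to 0.06931 and Rgs2 ran from -0.2096 to 0.2291. In old against young lung, Angptl4 ran from -0.1653 to 0.155 and Klf9 ran from -0.001803 to 0.0592. In old lung against old IFE culture, Ddit4 ran from -0.2212 to 0.04364 and Sult1a1 ran from -0.3363 to 0.2919.

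Deviations of same-numbered replicates correlated by -0.00437 to 0.00363 in vivo and -0.0274 to 0.0308 in vitro. These values show no shared shift by number across genes, but they cannot tell whether samples were handled in pairs. The block moved targets called lower in old lung from 6 to 8, with Errfi1 (-0.04324) and Mt1 (-0.09819) gained, kept 9 higher, and ended the calls of Bcl6 in the interaction and of Pik3r1 and Klf9 in old lung against culture. Over single targets and alternatives other than leaving out a library, 619 values kept direction and side of the threshold, 8 gained and 18 lost a call. Low counts limit Zbtb16, Pdk4, Slc10a6, Cdkn1c, Klf15 and Sult1a1.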
